A study of Mus musculus with 6 samples.

Results

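The clustered replication-dependent histone genes were examined in mouse T cells cultured under TH17-skewing conditions without or with glutamine. A gene was a member if a row of the expression table named it alone and its symbol placed it in the histone clusters, in the older naming (Hist1h1a) or the newer one (H1f1). Pseudogenes were left out, and the row with the highest mean was used for each symbol. This gave 27 genes of 30702 tested: 5 of class H1, 9 of H2A, 8 of H2B, 3 of H3 and 2 of H4. Of these, 21 lie on chromosome 13 and 6 on chromosome 3.

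Naive CD4+CD25-CD62L+CD44- T cells were sorted and stimulated for 3 days with antibodies against CD3 and CD28. The 3 arrays without glutamine came from cells kept in medium lacking this amino acid, and the 3 arrays with glutamine from cells kept in the same medium containing it. Both media held 10% FBS, TGF-beta (1.25 ng/ml), 20 ng/ml each of the cytokines IL-23 and IL-6, and 10 ug/ml of antibodies that block IFN-gamma, IL-4 or IL-12. The labels call the samples biological replicates without stating that they came from separate mice, so each p-value reflects only how far these arrays scatter, which may be partly technical. The genotype, strain and age of the mice are not stated.

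Histones package DNA into nucleosomes: pairs of H2A, H2B, H3 and H4 form the core, and H1 binds the linker DNA between cores. The clustered genes are transcribed mainly during S phase, when new DNA needs new histones, and their mRNAs end in a stem-loop instead of a poly(A) tail. Activated T cells divide quickly and therefore draw heavily on this supply. Glutamine feeds nucleotide synthesis and the citric acid cycle in such cells.

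The upstream sequences of the member with the largest difference in each class show the kinds of promoter behind these genes. Each is the stretch of 250 bases before the annotated start in the RefSeq promoter table of build GRCm38.p6, written 5′ to 3′ along the gene. Capitals mark the CCAAT box (CCAAT or its reverse complement ATTGG), the TATA box (TATAAA or TTTATA) and the octamer (ATTTGCAT or ATGCAAAT), searched on both strands.
H1f1 (chr13:23763418-23763667, plus strand): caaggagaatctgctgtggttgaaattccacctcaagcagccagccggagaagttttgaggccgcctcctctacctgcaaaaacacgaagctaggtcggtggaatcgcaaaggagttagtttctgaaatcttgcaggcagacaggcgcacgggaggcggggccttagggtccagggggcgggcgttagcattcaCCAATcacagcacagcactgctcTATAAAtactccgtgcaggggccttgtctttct
H2ac20 (chr3:96220881-96221130, minus strand): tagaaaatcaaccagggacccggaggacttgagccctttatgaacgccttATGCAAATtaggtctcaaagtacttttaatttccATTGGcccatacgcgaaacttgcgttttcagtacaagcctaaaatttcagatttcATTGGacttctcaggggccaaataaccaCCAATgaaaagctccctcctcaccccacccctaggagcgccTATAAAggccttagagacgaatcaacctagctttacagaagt
H2bc12 (chr13:22035571-22035820, plus strand): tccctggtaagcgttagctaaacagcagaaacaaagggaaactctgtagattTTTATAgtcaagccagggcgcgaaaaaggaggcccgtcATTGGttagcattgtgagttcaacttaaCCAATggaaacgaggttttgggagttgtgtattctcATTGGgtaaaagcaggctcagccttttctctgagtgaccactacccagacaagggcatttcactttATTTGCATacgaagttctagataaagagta
H3c3 (chr13:23745522-23745771, minus strand): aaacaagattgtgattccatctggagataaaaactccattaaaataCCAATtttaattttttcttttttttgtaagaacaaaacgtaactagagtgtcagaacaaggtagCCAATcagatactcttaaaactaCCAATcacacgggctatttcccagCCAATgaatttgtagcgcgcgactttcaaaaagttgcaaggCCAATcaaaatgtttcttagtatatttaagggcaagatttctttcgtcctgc
H4c2 (chr13:23756687-23756936, plus strand): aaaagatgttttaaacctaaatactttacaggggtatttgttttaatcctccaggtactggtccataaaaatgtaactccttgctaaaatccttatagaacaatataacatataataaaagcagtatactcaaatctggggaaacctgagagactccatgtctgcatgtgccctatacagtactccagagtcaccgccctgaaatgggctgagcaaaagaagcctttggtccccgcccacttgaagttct

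Windows of 300 bases, from 250 before the start to 50 from it, were found for 25 of the 27 genes; the table held none for H2bc21 and H3c7. A CCAAT box was present in 24 of the 25 windows (96.0%), against 37.4% of all 32851 windows in the table, and 19 held 2 or more. TATAAA or TTTATA was present anywhere in 14 windows (56.0%), against 13.6% of all windows. The only match lay after the annotated start in H2ac12, H2ac15, H2ac18 and H4c1 (at 15, 21, 11 and 41). In H2bc12 and H2bc22 it lay at −198 and −212, so a match need not be a TATA box of that gene. The octamer was present in 8 (32.0%), against 1.74% of all windows: 5 of 7 H2B windows and 3 of 9 H2A windows held it, and none of the 5 H1, 2 H3 and 2 H4 windows did. The windows of H2ac12 and H2bc12 and those of H2ac1 and H2bc1 overlap and hold the same octamer, read from opposite strands, so the 8 windows hold 6 separate sites. These window pairs also share TATA and CCAAT matches, which the counts above hold more than once. No matches of different motifs overlapped in these 25 windows. In the sequences above, H1f1 combines 1 CCAAT box with 1 TATA box, and H3c3 holds 5 CCAAT boxes. H2ac20 and H2bc12 each hold matches of all 3 motifs, and the H4c2 window holds none. The octamer match of H2ac20 begins at −200. Its neighbour H2bc21 lies 191 bases away, so this match falls within the annotated H2bc21 gene. The TATA match of H2bc12, at −198, is read from the other strand and is the site that the H2ac12 window holds at 15. These are matches of letters and do not show binding.

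The values are deposited log2 levels, and every difference below is the level without glutamine minus the level with glutamine. Array medians over all rows were 4.33 to 4.38 without glutamine and 4.18 to 4.21 with glutamine. Between 695 and 887 rows on each array lay above 16, more than a 16-bit scanner reading gives on a log2 scale, so how a log2 unit here converts to a fold is unknown and no folds are given. T cell markers were bright in both groups: Cd3e had 16.90, 16.96 and 16.83 without glutamine, against 16.86, 16.84 and 16.98 with glutamine. Of the 8 measured T helper identity genes, 2 rose (Cd3d by 0.88, adjusted p = 0.0174, and Cd5 by 0.51, adjusted p = 0.0118, limma) and 2 fell, Il17a and Il17f. Over all genes tested, 9.30% rose and 13.0% fell at an adjusted p under 0.05. The Cd3d call was lost without replicate 1 or 2 lacking glutamine or replicate 2 with glutamine (adjusted p up to 0.0633). The TH17 cytokine gene Il17a had 6.03, 6.36 and 5.42 without glutamine, against 12.38, 13.18 and 12.68 with glutamine. Cd8a lay at 3.72 to 3.83 without glutamine and at 3.76 to 3.92 with glutamine, below the array medians. Cd8b1, of the same list of CD8 and NK cell markers, lay above them. It was at 7.30 to 7.49 without glutamine and at 7.81 to 8.27 with glutamine. The mean over 6 B cell markers was 3.83 to 3.98 without glutamine and 3.82 with glutamine, and 0 of the 6 measured was called by limma, also at an unadjusted p under 0.05.

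Histone genes of classes H1, H2A, H2B and H3 fell without glutamine, while neither of the 2 H4 genes passed the test. By limma with Benjamini-Hochberg adjustment over 30702 genes, 20 of 27 members fell, 0 rose and 7 did not pass an adjusted p of 0.05, where 13.0% of all genes tested fell and 9.30% rose (22.3% in all). At an unadjusted p under 0.05, 22 fell and 0 rose. All 27 differences were below 0, against 39.3% of all genes, and in 23 of 27 every array without glutamine lay below every array with glutamine, against 18.8% of all genes. The median difference was −0.83, where the median over all genes was 0.060. A fall of at least 1 log2 that also passed the test was seen in 8 members, against 2.84% of all genes. In bulk RNA, fewer cells in S phase and less histone mRNA per cell cannot be told apart.

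The background share moved with the scaling and with the level of the genes tested. As deposited, 3988 of the 6843 genes called were lower without glutamine; after centring each array on its median this was 6126 of 7341, or 20.0% of all genes lower, and after quantile normalization 5252 of 6705, or 17.1%. The median of all genes moved to −0.095 under centring. Under these scalings 22 and 21 of the 27 members fell, and all 27 differences stayed below 0. Among the 15351 genes above the median level, 42.4% were called and 26.6% were lower. Of the members, 25 lay in that brighter group, and 21 of these fell. All measured genes of the processing, chaperone and S phase lists below also lay in it, so 13.0% is a low background for them. The count of members depended on single arrays: it was 13, 11 and 13 without replicates 1, 2 and 3 of the cultures lacking glutamine, and 16, 13 and 22 without replicates 1, 2 and 3 of the cultures with glutamine. The share of all genes called lower ranged between 8.68% and 13.1% over the same fits.

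**Figure D1:**
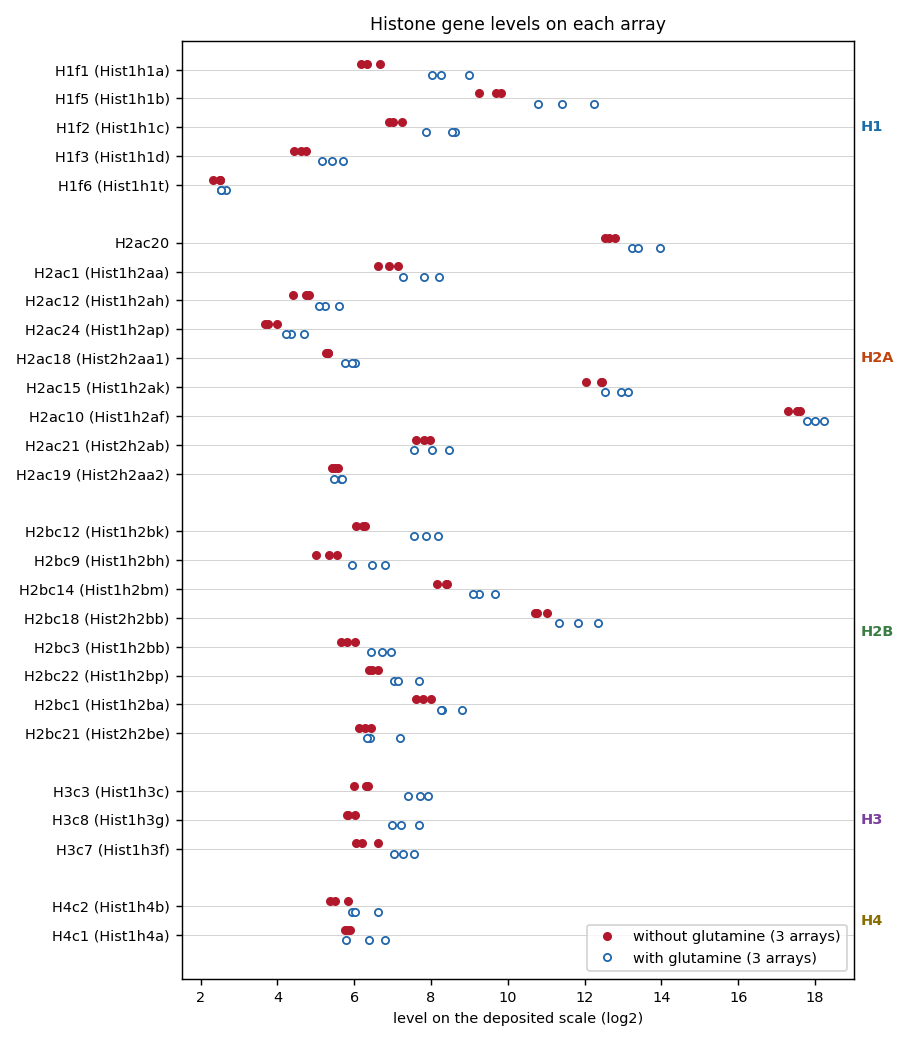
Deposited log2 level of each of the 27 histone genes on every array, grouped by class, with the arrays without glutamine drawn above those with glutamine. The genes span levels from 2.51 (H1f6) to 17.74 (H2ac10) as means over the 6 arrays, and in 23 of them the groups do not overlap.

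Among the linker histones, which bind the DNA between nucleosomes, 4 of 5 fell, with a median of −1.29, and H1f1 and H1f5 had the largest differences of all members. H1f1 (Hist1h1a) had 6.17, 6.32 and 6.67 without glutamine, against 8.98, 8.27 and 8.03 with glutamine. Its highest array without glutamine lay more than 1 log2 below its lowest array with glutamine. The difference was −2.04 (SE 0.26, adjusted p = 0.00288, limma), the largest in the set.

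H1f5 (Hist1h1b), the brightest of the class, had 9.70, 9.83 and 9.26 without glutamine, against 12.24, 11.41 and 10.80 with glutamine. The groups were apart, and the arrays with glutamine spread widely among themselves, so the SE was large: −1.89 (SE 0.36, adjusted p = 0.0122, limma). H1f2 (Hist1h1c) had 6.90, 7.02 and 7.24 without glutamine, against 8.62, 8.54 and 7.87 with glutamine, a difference of −1.29 (SE 0.21, adjusted p = 0.00707, limma). H1f3 (Hist1h1d) was dimmer, at 4.73, 4.43 and 4.61 without glutamine and 5.71, 5.16 and 5.41 with glutamine, and fell by 0.83 (SE 0.15, adjusted p = 0.0107, limma). These 4 calls held in each of the 6 fits that left out 1 array.

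H1f6 (Hist1h1t), the testis linker histone, was the dimmest member, at 2.50, 2.50 and 2.32 without glutamine and 2.66, 2.52 and 2.53 with glutamine. Its mean level was above that of 0.25% of all genes, and its difference of −0.13 did not pass the test (adjusted p = 0.304, limma).

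Class H2A, which pairs with H2B in the nucleosome core, had 6 of 9 members lower, with a median of −0.62 and none past 1 log2. H2ac20 had 12.78, 12.52 and 12.62 without glutamine, against 13.98, 13.24 and 13.38 with glutamine. All arrays without glutamine lay below all with it, and the difference was −0.89 (SE 0.19, adjusted p = 0.0196, limma). H2ac10 (Hist1h2af), the brightest member, had 17.60, 17.30 and 17.54 without glutamine, against 18.22, 17.99 and 17.78 with glutamine. It fell by 0.52 (SE 0.13, adjusted p = 0.0367, limma), and its row stayed within 0.041 log2 on every array of a row that names 10 H2A genes, so it cannot be taken as a measure of that gene alone.

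H2ac1 (Hist1h2aa), a testis-type H2A gene, had 7.14, 6.61 and 6.89 without glutamine, against 8.22, 7.82 and 7.26 with glutamine (−0.89, SE 0.25, adjusted p = 0.0478, limma). Its mean level was above that of 69.55% of all genes, unlike that of the testis gene H1f6. Whether the H2ac1 signal comes from related H2A transcripts was not tested. H2ac12 (Hist1h2ah) had 4.74, 4.40 and 4.82 without glutamine, against 5.60, 5.25 and 5.09 with glutamine (−0.65, SE 0.16, adjusted p = 0.0322, limma). H2ac15 (Hist1h2ak) had 12.45, 12.04 and 12.44 without glutamine, against 13.12, 12.96 and 12.53 with glutamine. Its groups did not overlap, but its lowest array with glutamine came within 0.1 log2 of those without, and −0.56 (SE 0.18) missed the threshold (adjusted p = 0.0705, limma).

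The calls of H2ac1, H2ac10 and H2ac12 were each lost in 5 of the 6 fits that left out 1 array, and remained only without replicate 3 with glutamine. Their adjusted p reached 0.146, 0.111 and 0.0939. The H2ac10 call was also lost with eBayes set to trend and robust, and H2ac15 was called after quantile normalization or centring. The H2ac20 call was lost without replicate 2 or 3 of the cultures lacking glutamine (adjusted p up to 0.0740). The count of H2A genes called was 2, 1 and 2 without replicates 1, 2 and 3 lacking glutamine, and 3, 2 and 7 without replicates 1, 2 and 3 with glutamine.

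A pair of nearly identical neighbours, picked after their values were seen, had unlike values. H2ac18 (Hist2h2aa1) had 5.25, 5.32 and 5.33 without glutamine, against 6.03, 5.77 and 5.95 with glutamine (−0.62, SE 0.09, adjusted p = 0.00423, limma). H2ac19 (Hist2h2aa2) had 5.43, 5.49 and 5.59 without glutamine, against 5.65, 5.47 and 5.68 with glutamine (−0.094, SE 0.09, adjusted p = 0.462, limma). Their promoter windows share an identical run of 219 bases, and signal from such copies cannot be assigned with certainty to one of them. A test of one gene against the other was not run. Of the remaining H2A genes, H2ac24 (Hist1h2ap) lay at 3.66 to 3.98 without glutamine and 4.23 to 4.69 with glutamine (−0.62, adjusted p = 0.0237, limma), and H2ac21 (Hist2h2ab) at 7.62 to 7.97 without glutamine and 7.56 to 8.48 with glutamine (−0.22, adjusted p = 0.519). The H2ac24 call was lost without replicate 1 or 2 lacking glutamine or replicate 2 with glutamine (adjusted p up to 0.0847). This gene was dim: its mean level was above that of 39.89% of all genes, and its arrays without glutamine lay below the array medians.

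Class H2B had 7 of 8 members lower, with a median of −0.94. H2bc12 (Hist1h2bk) had 6.24, 6.28 and 6.04 without glutamine, against 8.17, 7.88 and 7.56 with glutamine. The gap between the groups exceeded the spread within either group, and the difference of −1.69 (SE 0.16) had the lowest adjusted p of the set (0.00106, limma). H2bc18 (Hist2h2bb), the brightest of the class, had 11.03, 10.71 and 10.76 without glutamine, against 12.34, 11.82 and 11.34 with glutamine (−0.999, SE 0.24, adjusted p = 0.0296, limma).

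H2bc14 (Hist1h2bm) had 8.42, 8.15 and 8.38 without glutamine, against 9.68, 9.26 and 9.10 with glutamine, and fell by 1.03 (SE 0.16, adjusted p = 0.00611, limma). H2bc9 (Hist1h2bh) had 5.56, 5.01 and 5.34 without glutamine, against 6.81, 6.47 and 5.95 with glutamine (−1.10, SE 0.24, adjusted p = 0.0192, limma). The testis-type gene H2bc1 (Hist1h2ba) had 7.78, 7.99 and 7.61 without glutamine, against 8.82, 8.27 and 8.26 with glutamine (−0.66, SE 0.18, adjusted p = 0.0403, limma). Its mean level was above that of 74.51% of all genes, and whether its signal comes from related H2B transcripts was not tested. In all 3 genes the groups were apart, by the least in H2bc1.

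H2bc12 and H2bc14 stayed below the threshold in each of the 6 fits that left out 1 array. H2bc1 kept its call only without replicate 3 with glutamine (adjusted p up to 0.116). H2bc18 lost it without any 1 of the 3 arrays lacking glutamine or without replicate 2 with glutamine (up to 0.0994), and H2bc9 without replicate 2 or 3 lacking glutamine or replicate 2 with glutamine (up to 0.0686). The count of H2B genes called was 4, 3 and 4 without replicates 1, 2 and 3 lacking glutamine and 4 without replicate 2 with glutamine. H2bc3 (Hist1h2bb) and H2bc22 (Hist1h2bp), also lower, had differences of −0.88 and −0.79 (adjusted p = 0.0102 and 0.0206, limma); H2bc22 lost its call without replicate 1 or 2 lacking glutamine (up to 0.0765). The member of this class that did not pass was H2bc21 (Hist2h2be), named after its values were seen. It had 6.44, 6.29 and 6.13 without glutamine, against 6.42, 6.34 and 7.19 with glutamine, where only 1 array with glutamine stood above the rest (−0.37, SE 0.23, adjusted p = 0.295, limma).

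All 3 measured H3 genes fell, with a median of −1.40. H3c3 (Hist1h3c) had 6.37, 6.31 and 5.99 without glutamine, against 7.91, 7.71 and 7.41 with glutamine (−1.45, SE 0.16, adjusted p = 0.00166, limma). H3c8 (Hist1h3g) had 6.03, 5.82 and 5.85 without glutamine, against 7.68, 7.21 and 6.99 with glutamine (−1.40, SE 0.18, adjusted p = 0.00294, limma). H3c7 (Hist1h3f) had 6.61, 6.21 and 6.05 without glutamine, against 7.55, 7.26 and 7.03 with glutamine (−0.99, SE 0.18, adjusted p = 0.0113, limma). In each the groups were apart, and all 3 calls held in each of the 6 fits that left out 1 array.

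Neither measured H4 gene passed the test. H4c2 (Hist1h4b) had 5.36, 5.50 and 5.84 without glutamine, against 6.63, 5.93 and 6.02 with glutamine (−0.63, 95% interval −1.13 to −0.12, adjusted p = 0.0793, limma). H4c1 (Hist1h4a) had 5.76, 5.89 and 5.81 without glutamine, against 6.81, 6.37 and 5.80 with glutamine (−0.51, 95% interval −1.07 to 0.056, adjusted p = 0.173, limma). In H4c1 the third array with glutamine sat among those without, and without that array the gene was called (adjusted p = 0.0154). At an unadjusted p under 0.05, 1 of the 2 was lower. A second row for H4c2 lay at 3.39, 3.24 and 3.20 without glutamine and 3.38, 3.37 and 3.36 with glutamine, near the bottom of the scale.

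**Figure D2:**
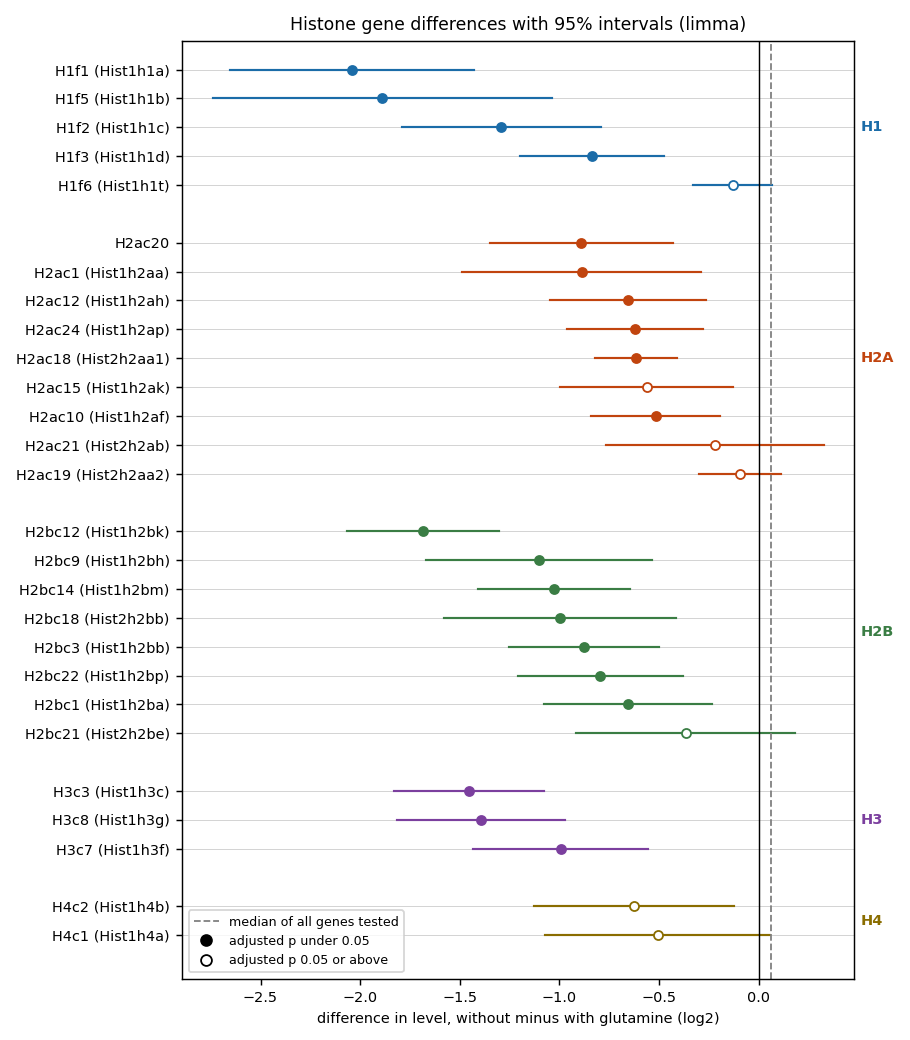
Difference in log2 level, without minus with glutamine, for each of the 27 histone genes by class, with its 95% interval from limma. Every point lies below 0, from −2.04 (H1f1) to −0.094 (H2ac19), where the dashed median of all genes tested is at 0.060.

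The fall was not even across the arrays with glutamine. Replicate 1 with glutamine held the highest level of its group in 24 of the 27 members, and replicate 3 the lowest in 19. The median level over the members was 6.37, 6.29 and 6.05 on the 3 arrays without glutamine, against 7.68, 7.26 and 7.19 on the 3 arrays with glutamine. Without replicate 1 with glutamine the median difference of the members was −0.66, and over the 6 fits that left out 1 array it ranged from −0.91 to −0.66. Among the arrays without glutamine the order was less fixed: replicate 1 was highest in 13 members and replicate 2 lowest in 12.

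**Figure D3:**
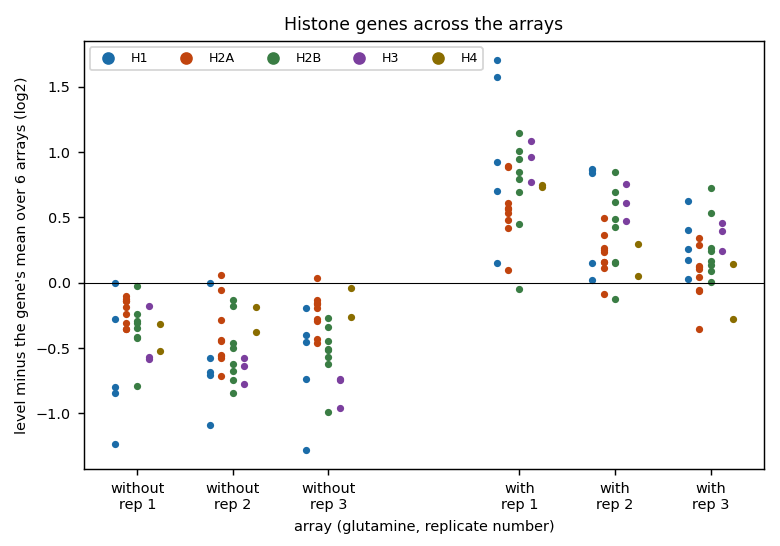
Level of each histone gene on each array minus its own mean over the 6 arrays, in log2, coloured by class, with the arrays without glutamine on the left. The points of replicate 1 with glutamine lie highest, and those of the 3 arrays without glutamine lie mostly below 0.

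Chromosome and level did not order the members simply. On chromosome 13, 17 of 21 members fell (median −0.88), and on chromosome 3, 3 of 6 (median −0.49), against 13.0% of all genes. The smaller group holds only H2A and H2B genes, and the difference between the chromosomes was not tested. Across the 27 members the difference and the mean level had a Pearson r of −0.130 and a Spearman rho of −0.335, given as a description of genes that share the same arrays.

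H2A and H2B genes often lie head to head, less than 300 bases apart, and 3 such pairs could be compared. H2ac12 and H2bc12, with 177 bases between them and 277 bases in common between their promoter windows, differed by −0.65 and −1.69. The difference of H2bc12 minus that of H2ac12 was −1.03. An exact two-sided permutation test on the per-array gap gave p = 0.1, the smallest that 3 against 3 arrays allow. No outcome of this test could pass 0.05, so it cannot decide whether the genes of a pair differ. Different probes measured the 2 genes of each pair. H2ac20 and H2bc21 (191 bases apart) differed by −0.89 and −0.37 (exact permutation p = 0.4), and H2ac1 and H2bc1 (280 bases apart) by −0.89 and −0.66 (exact permutation p = 0.5). These 3 tests were not adjusted, since no p could fall below the threshold.

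Many histone genes are so alike that the array names them together. Of 39 rows that name several genes, at least 1 of them a clustered histone gene, 34 name only histone genes of 1 class and no pseudogene. These 34 rows were looked at after the data were seen and are tied to a class, not to a gene. In a limma fit over all 65956 rows, 29 of the 34 fell and 0 rose, with 0 higher also at an unadjusted p under 0.05, where 6.33% of all rows fell and 10.3% rose. All 34 differences were below 0, against 30.6% of all rows, with a median of −0.83, and in 31 the groups did not overlap, against 11.2% of all rows. By class, 6 of 8 H2A rows fell (median −0.74), 8 of 8 H2B rows (−0.89), 7 of 7 H3 rows (−0.72) and 8 of 11 H4 rows (−0.75). The H4 class, where neither single gene passed, thus had most of its shared rows below the threshold.

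An H2B row naming 3 genes showed the largest shared difference. It had 8.71, 8.98 and 8.96 without glutamine, against 11.22, 10.84 and 10.47 with glutamine (−1.96, SE 0.19, adjusted p = 0.00206, limma over all rows). At the other end, an H2A row naming 2 genes had 10.84, 10.70 and 10.90 without glutamine, against 10.92, 10.81 and 10.84 with glutamine (−0.045, SE 0.09, adjusted p = 0.763). The count of shared rows called was 18, 11 and 12 without replicates 1, 2 and 3 lacking glutamine, and 15, 11 and 32 without replicates 1, 2 and 3 with glutamine. Rows can share the same transcripts, so they are not independent of one another or of the single-gene rows.

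**Figure D4:**
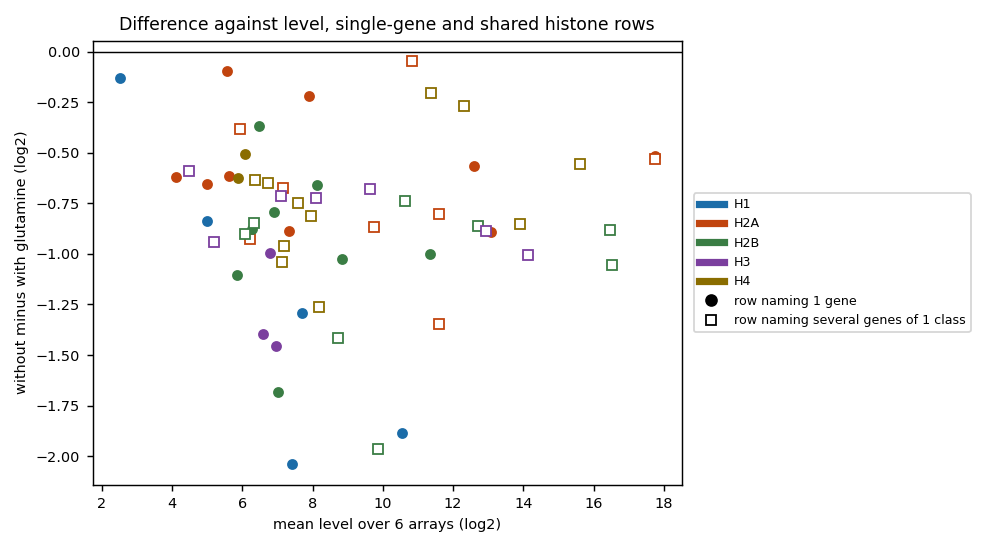
Difference without minus with glutamine against mean level over the 6 arrays, both in log2, for 27 rows naming 1 histone gene (circles) and 34 rows naming several genes of 1 class (squares), coloured by class. All 61 points lie below 0, and the shared rows reach the same levels and differences as the single-gene rows.

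The machinery that makes and processes histone mRNA moved in part. Of 25 measured genes of this list 15 fell and 1 rose, with a median of −0.44, where 13.0% of all genes fell and 9.30% rose. The 1 riser is not more than that share gives. Slbp, which binds the stem-loop at the end of histone mRNAs, had 8.33, 8.29 and 8.24 without glutamine, against 8.80, 8.69 and 8.79 with glutamine (−0.47, SE 0.07, adjusted p = 0.00485, limma). Casp8ap2, the FLASH protein of the 3′ end processing complex, had 9.95, 9.94 and 10.20 without glutamine, against 10.51, 10.47 and 10.59 with glutamine (−0.50, SE 0.09, adjusted p = 0.0118, limma). In both genes all arrays without glutamine were below all arrays with it.

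Npat, the histone gene coactivator that cyclin E and Cdk2 phosphorylate, had 12.003, 11.749 and 11.932 without glutamine, against 11.88, 11.92 and 12.02 with glutamine (−0.047, 95% interval −0.26 to 0.17, adjusted p = 0.732, limma). Lsm11, a protein of the U7 snRNP that cuts histone pre-mRNA, had 5.89, 5.82 and 5.70 without glutamine, against 5.86, 5.85 and 5.74 with glutamine (−0.012, 95% interval −0.20 to 0.18, adjusted p = 0.926, limma). The groups overlapped in both. The sign of each turned when 1 array was left out.

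Transcripts of cyclin E and of Cdk2, which together act on Npat, were lower without glutamine. Their proteins and kinase activity were not measured here. Ccne1, cyclin E1, had 8.61, 8.53 and 8.77 without glutamine, against 9.99, 9.76 and 10.14 with glutamine (−1.33, SE 0.12, adjusted p = 0.000854, limma). Ccne2, cyclin E2, fell by 1.13 (SE 0.11, adjusted p = 0.00111), while Cdk2, their partner kinase, fell by 0.84 (SE 0.07, adjusted p = 0.000666). The gene that rose, named after its value was seen, was Nfya, a subunit of the CCAAT-binding factor: 10.43, 10.44 and 10.39 without glutamine, against 9.98, 9.90 and 10.10 with glutamine (0.43, SE 0.08, adjusted p = 0.00986). Of the other subunits of that factor, Nfyc fell (−0.42, adjusted p = 0.0136, limma; up to 0.0536 without replicate 2 lacking glutamine) and Nfyb did not pass (−0.21).

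Histone variants made outside the clusters did not move as one. Of 8 measured variants 3 fell, 1 rose and 4 did not pass (median −0.29), against 13.0% of all genes lower and 9.30% higher. A share of 1 riser in 8 is near that of all genes. Rows for H3f3a, H3f3b and H1f0 alone were not analysed here. H2ax, the variant phosphorylated at DNA breaks, had 11.79, 11.81 and 11.92 without glutamine, against 13.38, 13.23 and 13.32 with glutamine (−1.47, SE 0.08, adjusted p = 0.000142, limma). Cenpa, the H3 variant of centromeres, had 7.99, 7.74 and 8.09 without glutamine, against 9.19, 9.23 and 9.32 with glutamine (−1.31, SE 0.11, adjusted p = 0.00061, limma). H2az1, an H2A variant found at promoters, had 13.53, 13.35 and 13.43 without glutamine, against 14.67, 14.48 and 14.51 with glutamine (−1.12, SE 0.09, adjusted p = 0.000503, limma).

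In these 3 variants the groups were far apart relative to their spread. The variant that rose was H2aj, with 10.80, 10.42 and 10.32 without glutamine, against 10.07, 9.79 and 9.84 with glutamine (0.61, SE 0.14, adjusted p = 0.0265, limma). It was called in 3 of the 6 fits that left out 1 array and lost without replicate 2 lacking glutamine or replicate 2 or 3 with glutamine (adjusted p up to 0.0882). After centring, 5 variants fell and 0 rose.

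Histone chaperones and importers, which carry new histones into the nucleus and onto DNA, had 13 of 22 members lower and 1 higher (median −0.41). Among all genes 13.0% fell and 9.30% rose, so 1 riser is not more than that share gives. Chaf1a, of the assembly factor CAF-1 at replication forks, had 8.77, 8.54 and 8.83 without glutamine, against 9.83, 9.57 and 9.62 with glutamine (−0.96, SE 0.11, adjusted p = 0.00197, limma). Hjurp, the chaperone of Cenpa, fell by 0.95 (SE 0.11, adjusted p = 0.00214), and Asf1b, which hands H3 and H4 to CAF-1, fell by 0.82 (SE 0.08, adjusted p = 0.00124). Nasp, a chaperone of H1 and of H3 with H4, fell by 0.55 (SE 0.09, adjusted p = 0.00668).

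Chaf1b, the partner of Chaf1a, fell by 0.40 (SE 0.08, adjusted p = 0.0169), a call lost without replicate 2 lacking glutamine or replicate 1 with glutamine (adjusted p up to 0.0550). The member that rose was the importin gene Ipo4 (0.58, SE 0.12, adjusted p = 0.0180). Its call was lost without replicate 1 or 3 lacking glutamine or replicate 2 with glutamine (adjusted p up to 0.0581), and after centring 0 genes of this list were higher.

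Genes of DNA replication in S phase were also lower: 31 of 36 fell and 0 rose (0 also at an unadjusted p under 0.05), with a median of −0.78. The shares over all genes were 13.0% lower and 9.30% higher. Rrm2, a subunit of the enzyme that makes deoxynucleotides, had 12.87, 12.71 and 12.77 without glutamine, against 14.48, 14.30 and 14.61 with glutamine (−1.68, SE 0.10, adjusted p = 0.000211, limma). Mcm3, of the replicative helicase, fell by 1.59 (SE 0.08, adjusted p = 0.000159), and Orc1, of the origin recognition complex, fell by 1.56 (SE 0.08, adjusted p = 0.00017). Mki67, a marker of proliferating cells, had 15.08, 14.86 and 15.36 without glutamine, against 15.92, 16.01 and 15.96 with glutamine (−0.86, SE 0.13, adjusted p = 0.00505, limma).

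Pcna, the sliding clamp of DNA polymerase, had 14.53, 14.40 and 14.45 without glutamine, against 14.84, 14.60 and 14.86 with glutamine. Its groups did not overlap, and −0.31 (SE 0.09) missed the threshold (adjusted p = 0.0576, limma). It was called lower after quantile normalization (adjusted p = 0.0384), after centring (0.0134), when only the brighter genes were tested (0.0478) and without replicate 2 with glutamine (0.0326). Whether the histone genes differed from this list was not tested.

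**Figure D5:**
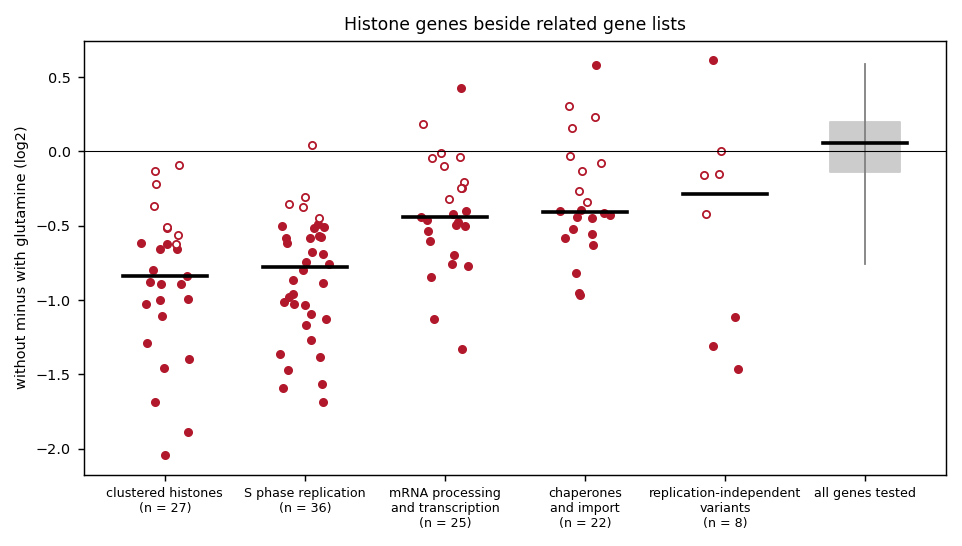
Difference without minus with glutamine in log2 for each gene of the histone set and of 4 related lists, filled where the adjusted p is below 0.05, with a black bar at each median. The grey box spans the 25th to 75th percentiles of all genes tested (−0.14 to 0.20) and its line the 5th to 95th (−0.76 to 0.59). The medians of the histone genes and the S phase list are at −0.83 and −0.78.

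Of 7 CD8 and NK cell markers 3 fell, against 13.0% of all genes. The differences were −3.23 for Klrc1, −1.42 for Klrd1 and −0.71 for Cd8b1, all below an adjusted p of 0.05 by limma. The mean level of the list was 5.19 to 5.37 without glutamine and 5.86 to 6.14 with glutamine. The markers Ncr1 and Klrb1c were at 3.51 to 3.58 and 3.73 to 3.83 without glutamine, and at 3.38 to 3.46 and 3.53 to 3.75 with glutamine. Other markers of the list lay above the array medians. Klrc1 was at 6.38 to 6.88 without glutamine and 9.50 to 10.27 with glutamine. Klrd1 was at 6.33 to 6.71 and 7.75 to 8.23, and Eomes at 4.92 to 5.47 and 5.07 to 5.44, in the same order. Of 7 myeloid markers 1 fell (Lyz2, −1.66), a share near the 13.0% of all genes that fell, with list means of 3.995 to 4.082 without glutamine and 4.23 to 4.30 with glutamine. Neither of the 2 measured erythroid markers was called by limma (1 was higher at an unadjusted p under 0.05). The cells had been sorted as CD4+CD25-CD62L+CD44- before culture, and the purity of the sort is not given here. The part of these markers' source cells in the histone result was not tested.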

How the data were processed

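Total RNA from 3 cultures without and 3 with glutamine was extracted with Trizol and labelled with the WT PLUS kit, per the labels' protocols. The deposited log2 values were made by the authors with RMA, with Transcriptome Analysis Console 4.0 as a named tool, per the submitters' processing notes. Options, annotation release and build: not given in the sources used here. Array data have no read depth; the number of arrays limits the precision.

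From the 65956 deposited rows, 31258 name 1 gene on the platform, 1492 name several and 33206 are unnamed here. The highest-mean row per symbol gave 30702 genes. Older symbols were updated through RefSeq. No columns of other samples were present (0). The 2 groups were compared with limma 3.58.1 in R 4.3.3 (lmFit, eBayes, two-sided, Benjamini-Hochberg over all genes, adjusted p under 0.05), without covariates. The fit was tested on simulated data. Permutation tests used scipy 1.17.1, tables Python 3.11.15 and figures matplotlib 3.10.9. Intervals are 95%.

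Named genes were, per class, the 3 brightest, up to 3 largest changes past the threshold in each direction and every member of a class with 5 or fewer. Per list they were up to 3 largest changes past the threshold and a fixed set around histone supply. Members outside this rule, marker genes, Nfya, Nfyb, Nfyc, H2aj and Ipo4 were named after their values were seen. The members and lists were chosen with earlier results of these data known. Alternatives covered scaling, filters, rows per symbol, eBayes settings, array weights, replicate block, thresholds and leaving out each array.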

Additional observations from a re-analysis of the deposited data

How the results depend on the processing

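Under the alternatives run the histone differences stayed below 0, except for H2ac21, at 0.0078 without replicate 1 with glutamine. The count of members lower was 19 to 22 under the other scalings, filters, row rules, eBayes settings and weights. It was 7 at an adjusted p under 0.01 and 8 with at least 1 log2, where 6.98% and 2.84% of all genes were lower. It ranged from 11 to 22 when 1 array was left out. At an adjusted p under 0.01, 2 H1, 1 H2A and 2 H2B genes were lower, and with at least 1 log2, 0 H2A and 3 H2B. Leaving out 1 array gave 1 to 7 H2A, 3 to 7 H2B and 0 to 1 H4 genes, and 11 to 32 shared rows. H4 had 1 gene lower under median centring and among genes above the median level.

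Median centring moved the medians to −0.60 (mRNA processing and transcription), −0.56 (chaperones and import) and −0.93 (S phase), and gave 5 variants lower with 0 higher and 0 chaperones higher. At an adjusted p under 0.01, 8 processing genes and 4 chaperones were lower, and 0 variants and 0 chaperones higher. With at least 1 log2, 2 processing genes, 0 chaperones and 13 S phase genes were lower, and 0 processing genes, 0 variants and 0 chaperones higher. At these thresholds 6.98% and 2.84% of all genes were lower, in that order. Leaving out 1 array gave 0 to 1 variants and 0 to 1 chaperones higher. The median of all genes was −0.048 after quantile normalization, −0.095 after centring and −0.059 among genes above the median level. Leaving out 1 array gave −0.056 to 0.040 for Lsm11 and −0.101 to 0.026 for Npat. Lsm11 turned to 0.040, 0.009 and 0.0055 without replicate 3 lacking glutamine and replicates 1 and 2 with glutamine, and Npat to 0.026 without replicate 2 lacking glutamine. The cause was not tested; leaving out an array also leaves fewer samples.

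Samples with the same replicate number did not deviate together throughout (correlations of 0.066, −0.234 and 0.276), so the numbers were not taken as pairs. With the replicate number as a block, the same 20 members were called lower, and 6292 genes in place of 6843.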

Other observations

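The 2 rows of histone pseudogenes, left out above, also lay lower without glutamine in the limma fit over all rows. The H2ac14 row (Hist1h2aj) had 17.88, 17.57 and 17.84 without glutamine, against 18.59, 18.40 and 18.24 with glutamine (−0.65, adjusted p = 0.0193). The H2bu1-ps row (Hist3h2bb-ps), on chromosome 11, had 6.42, 6.73 and 6.53 without glutamine, against 8.974, 7.995 and 7.622 with glutamine (−1.64, adjusted p = 0.0184). In both rows all arrays without glutamine lay below all arrays with it, and whether their signal comes from these loci or from related histone transcripts was not tested.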
